A study of Cicer arietinum with 32 samples.

Results

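Transcript levels of isolated root hair (RH) were compared with those of root (R) in chickpea (Cicer arietinum) genotype ICC4958. The comparison took every transcript that reached 0.5 FPKM (a level corrected for transcript length and for the number of mapped fragments) in RH or R. It retained 23722 of the 38818 transcripts measured. The lowest higher value of a retained transcript was 0.5 FPKM, the highest value of a transcript left out was 0.497 FPKM, and 7630 of the 15096 transcripts left out were listed at 0 in both tissues. RH and R are 2 of the 32 tissues/organs of an RNA-seq expression atlas, and each has 1 value per transcript. Differences are given as RH minus R on the log2(FPKM + 1) scale, which understates the differences of transcripts with low levels.

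Both samples came from seedlings of the same genotype, with no treatment or transgene. Roots were taken from 15-day-old seedlings of a culture room. Root hairs were harvested from seedlings raised in the dark that were 7 days old by the methods, while the study's sample list gives 5 days. Cell type, seedling age and light therefore differed together between the 2 samples, and their shares in any difference cannot be told apart. In a whole root, fewer cells of a type and less RNA per cell cannot be told apart either.

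Root hairs are tubular outgrowths of single epidermal cells that enlarge the surface through which a root takes up water and mineral ions. They elongate at the tip, where vesicles with wall material are delivered along actin and where phosphoinositides, calcium and reactive oxygen mark the growing site. Pollen tubes grow in the same way. In legumes, root hairs are also the place where rhizobia usually enter.

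The files differed in a way that bears on the replicate structure. The methods give 3 libraries for RH and 3 for R, averaged per tissue. In RH, 33.0% of the 28917 values above 0 had at most 2 decimals and the others ended in 3 or 7 after them, as averages of 3 values with 2 decimals do. In the other tissues apart from 30DAP seed, the share was 32.7 to 33.7%. In R, all 27449 values above 0 had at most 2 decimals. The R values may therefore be 1 library or rounded averages, which the values do not tell apart. No spread between replicates is contained in either file, so no test between RH and R was made and each difference is that between 2 values without replicate error. The depth per library is not in the files, and FPKM summed to 723831 in RH and 857445 in R.

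RH held 3522 transcripts that were higher than in R by at least 1 on the log2(FPKM + 1) scale, which is 14.8% of the 23722 tested. It held 7781 that were lower by at least 1, which is 32.8%. The median difference over all tested transcripts was -0.45, so the level of a typical transcript was lower in RH. This balance depended on the scaling: among transcripts past the threshold, 31.2% were higher in RH in the values as deposited, 35.7% after RH was scaled to the median ratio, and 49.9% after quantile normalization, where the counts were 5537 higher and 5568 lower. Quantile normalization gives both tissues the same set of values, so its near balance is largely built in and is no evidence of equal numbers. With a common FPKM sum, 38.4% were higher. The counts of higher and lower transcripts therefore say little about the size of a surplus, and gene lists are set against the median of all tested transcripts. Differences of at least 2 were found in 1486 transcripts (6.26%) that were higher and 3393 (14.3%) that were lower, and differences of at least 3 in 711 transcripts (3.00%) that were higher and 1474 (6.21%) that were lower. The 711 transcripts carried 25.6% of the FPKM sum of RH and 0.587% of that of R. The 1474 transcripts carried 1.53% of the sum of RH and 26.1% of that of R. The RH and R values chose both sets, so their small share in the other tissue follows from the choice.

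**Figure D1:**
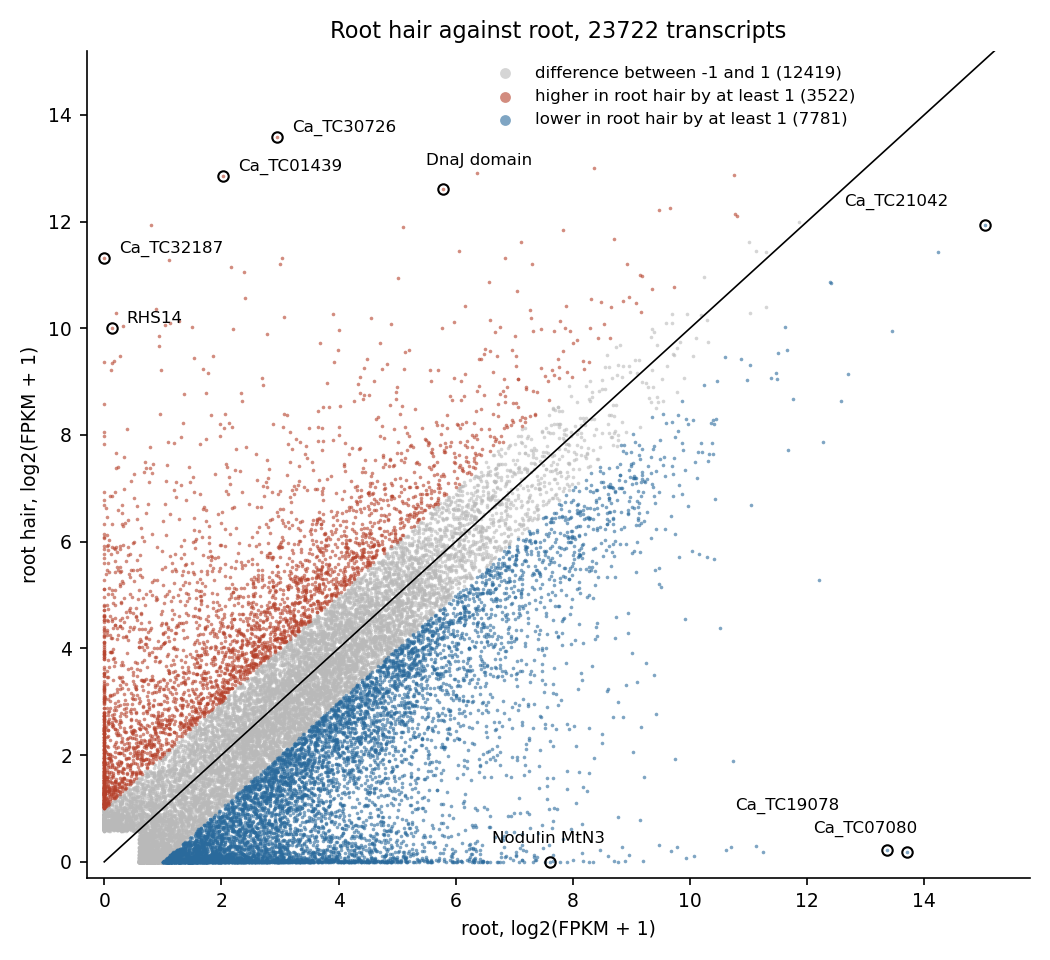
Each point is 1 of the 23722 transcripts, with its level in root on the x axis and in root hair on the y axis, both as log2(FPKM + 1), and the line marks equal levels. The 3522 transcripts higher in root hair are red and the 7781 lower ones blue, and circles mark transcripts that the text names.

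The difference between 2 stages of flower development gives a scale for these counts. The flower stages FL3 and FL2 differed by at least 1 in 2.56% of transcripts in one direction and 2.00% in the other, while root tip (Rtip) and R differed in 22.2% and 19.1%. Rtip came from 15-day-old seedlings, as R did. Against Rtip instead of R, RH had 3566 higher and 8138 lower transcripts, so the counts were of the same size with another root sample as the reference.

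The identity of the RH sample was checked on 6 transcripts annotated with root hair genes of Arabidopsis. Ca_TC00743, annotated as ROOT HAIR SPECIFIC 14 (RHS14) and lying at Ca1:5681448-5683941 of the kabuli genome draft (v1.0), had 1025 FPKM in RH and 0.09 FPKM in R. Among all tissues with FPKM it was highest in RH, followed by Rtip with 4.63 FPKM. Ca_TC00792, annotated as SCN1, which in Arabidopsis restricts hair formation to 1 site per cell, had 19.5 FPKM in RH and 5.21 FPKM in R. It was higher still in androecium, with 154 FPKM. The respiratory burst oxidase Ca_TC33968, of a family that makes reactive oxygen at the cell surface, did not follow this order, with 2.41 FPKM in RH and 4.29 FPKM in R. The remaining 3 markers were nearly absent from both tissues, with at most 0.17 FPKM in RH and 0.01 FPKM in R. Among them was Ca_TC00473, annotated as MRH1, a receptor-like kinase of root hair elongation in Arabidopsis, which reached 43.7 FPKM in androecium. Of 6 markers, 2 were thus higher in RH by at least 1, 1 was lower by less than 1, and 3 could not be judged. Ca_TC33968 and, among the nearly absent markers, Ca_TC31868 and Ca_TC33576 are listed as not aligned to the genome, so their levels are uncertain.

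Further transcripts annotated with root hair genes or terms stayed below the threshold in the values as deposited. Ca_TC00914, annotated as RHD3, a GTP-binding protein that shapes the endoplasmic reticulum, had 14.6 FPKM in RH and 20.8 FPKM in R. Ca_TC00366, annotated as IBR10, an enzyme of indole-3-butyric acid turnover, had 35.6 FPKM in RH and 19.0 FPKM in R. Ca_TC00717, annotated as CPL3, a small MYB-type regulator of epidermal cell fate, was nearly absent, with 0.013 FPKM in RH and 0 in R. The protein kinase Ca_TC00558, annotated as PID, had 0.107 FPKM in RH and 1.13 FPKM in R. Its difference of -0.94 is understated at such low levels. None of these differences reached 1 in the values as deposited, while that of IBR10 was 1.02 to 1.11 under the 3 other scalings.

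The largest differences toward higher levels in RH belonged mostly to transcripts for which no gene description is at hand. Ca_TC30726 had the highest level in RH, 12256 FPKM, against 6.74 FPKM in R. Ca_TC01439 (Ca1:11103195-11105094) had 7369.6 FPKM in RH and 3.09 FPKM in R, and Ca_TC10487 had 3894 FPKM in RH and 0.74 FPKM in R. In Rtip, Ca_TC30726 had 57.2 FPKM and Ca_TC01439 had 49.2 FPKM, which was more than in R and far less than in RH. Ca_TC32187 had the largest difference in this direction, with 2555 FPKM in RH and listed at 0 in R. It was also found in 30DAP seed at 2624 FPKM and in germinating seedlings (GS) at 894 FPKM. Ca_TC31859, Ca_TC11206, Ca_TC27638, Ca_TC14179 and Ca_TC10266 completed the 10 largest differences with RHS14. Their levels were between 661 and 2477 FPKM in RH and at most 1.16 FPKM in R.

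Other abundant RH transcripts were also present in R, at lower levels. Ca_TC04317 had 8189.7 FPKM in RH and 328 FPKM in R, and Ca_TC07174 had 7666 FPKM in RH and 80.9 FPKM in R. Ca_TC09090 had 7521 FPKM in RH and 1728 FPKM in R, a ratio of 4.35. All 3 were highest in RH and next highest in Rtip.

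Of the 3438 transcripts with a gene description, 1605 were tested, of which 214 (13.3%) were higher and 527 (32.8%) lower by at least 1, close to the 14.8% and 32.8% of all tested transcripts. After RHS14, the largest difference toward RH belonged to Ca_TC19205, which encodes a protein with a DnaJ domain, the part of a co-chaperone that contacts Hsp70. It had 6279.5 FPKM in RH and 54.3 FPKM in R, a ratio of 116, and 460 FPKM in GS. Ca_TC34326 encodes an S-adenosylmethionine synthetase, which makes the methyl donor of the cell and the precursor of ethylene, and had 138 FPKM in RH, 0.69 FPKM in R and nearly as much as in RH in the flower stage FL4, with 125 FPKM. Ca_TC02445, of the RIN4 family named after a defence protein of Arabidopsis, had 48.5 FPKM in RH, 0.29 FPKM in R and 42.4 FPKM in FL1. The hydrolase Ca_TC00862 had 59.6 FPKM in RH, 1.49 FPKM in R and 50.3 FPKM in androecium.

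**Figure D2:**
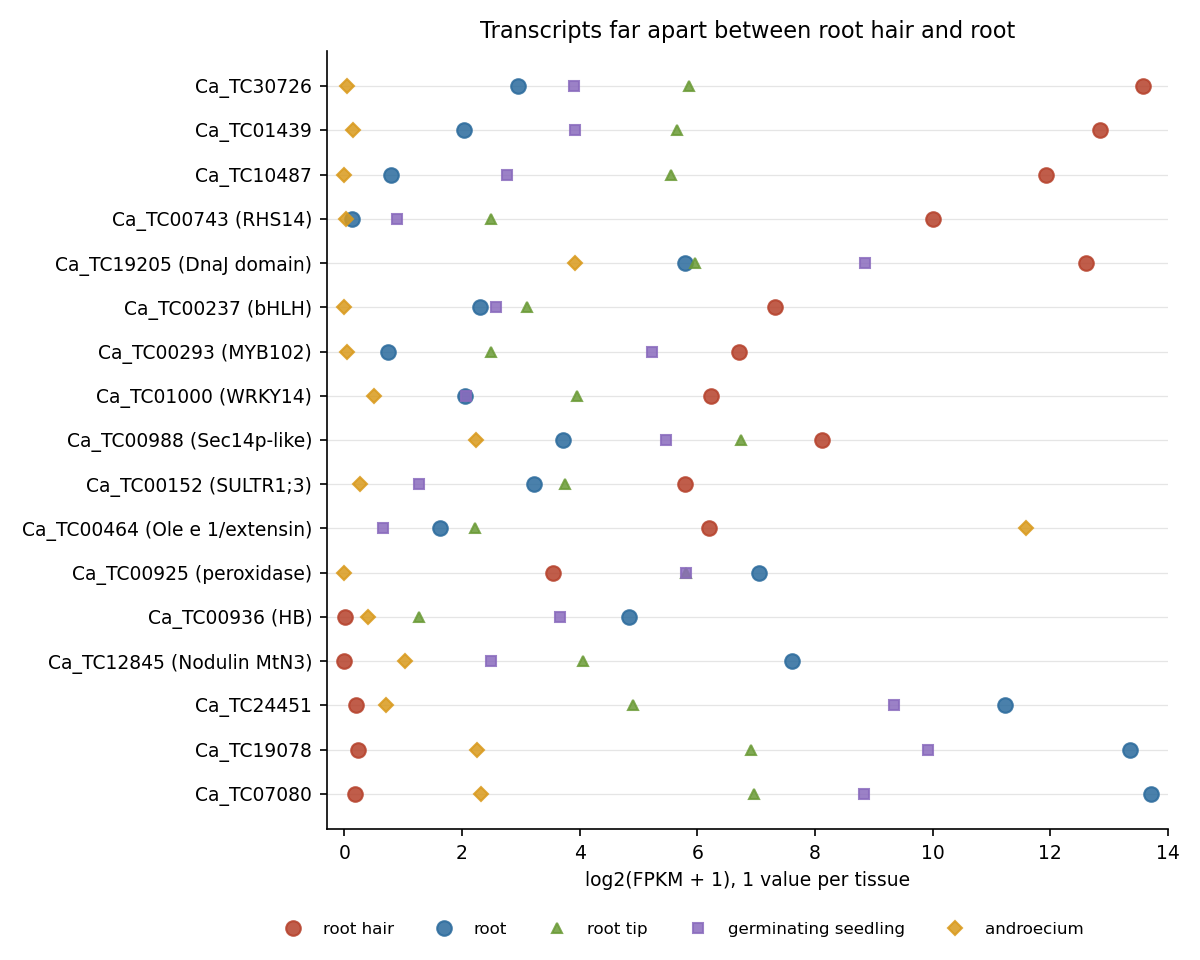
Levels of transcripts far apart between the 2 tissues in root hair, root, root tip, germinating seedling and androecium are shown on the x axis as log2(FPKM + 1), with 1 value per tissue. Upper transcripts are high in root hair, Ole e 1/extensin is higher still in androecium, and the lowest 6 are higher in root.

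The machinery of tip growth was represented by 50 transcripts, the markers above included, of which 23 were tested. Among these, 9 were higher and 3 lower by at least 1, and their median difference was 0.83, beside -0.45 over all tested transcripts. With values rescaled in 3 other ways, the list's median stayed above that of all tested transcripts, and 11 or 12 of its members were higher. Of all tested transcripts, 16.9 to 23.1% were then higher. The Sec14p-like phosphatidylinositol transfer proteins, a family with a member needed for root hair growth in Arabidopsis, were represented by Ca_TC00987 and Ca_TC00988. Ca_TC00988 had 279 FPKM in RH and 12.2 FPKM in R, and Ca_TC00987, which overlaps it, had 222 FPKM and 9.91 FPKM. Both were also high in embryo, where Ca_TC00988 had 557 FPKM and Ca_TC00987 had 175 FPKM.

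Actin transcripts went separate ways within this list. Ca_TC32821, annotated as actin 7, had 67.1 FPKM in RH and 2.47 FPKM in R, whereas the much more abundant Ca_TC00132, annotated as actin-11, had 860 FPKM in RH and 909 FPKM in R. Of the actin depolymerizing factors, which turn filaments over, Ca_TC32919 had 19.0 FPKM in RH and 3.90 FPKM in R, and Ca_TC00887 had 677 FPKM and 533 FPKM. Ca_TC00912, a subunit of the exocyst that tethers vesicles at the membrane, had 13.7 FPKM in RH and 4.81 FPKM in R. The 3 lower members were the RAB GTPase Ca_TC00424, the formin Ca_TC31888 and the phosphoinositide kinase Ca_TC35802. Ca_TC35802 had 3.38 FPKM in R and was listed at 0 in RH. Several members, Ca_TC32821 and Ca_TC31888 among them, are listed as not aligned to the genome, as is the S-adenosylmethionine synthetase transcript. Whether they share reads with near-identical copies could not be checked, and their levels are uncertain.

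Cell wall proteins showed differences in both directions. Of 12 tested members, 5 (41.7%) were higher and 2 (16.7%) lower, beside 14.8% and 32.8% of all tested transcripts. The list's median difference was -0.07. Ca_TC00464 (Ca1:3194078-3195163), of the Pollen Ole e 1 allergen and extensin family, had 72.6 FPKM in RH and 2.07 FPKM in R. Ca_TC01073, described as of the invertase and pectin methylesterase inhibitor superfamily, had 29.9 FPKM in RH and 0.58 FPKM in R. Whether it encodes an inhibitor or an enzyme was not examined. Ca_TC01041 and Ca_TC00865 were higher as well, with 9.65 and 4.04 FPKM in RH and 0.72 and 0.03 FPKM in R. Lower members were the cellulose synthase family transcript Ca_TC00491, listed at 0 in RH with 8.29 FPKM in R, and Ca_TC33667, a xyloglucan endotransglucosylase, with 1.66 FPKM in RH and 14.6 FPKM in R.

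Among 9 tested class III peroxidases, secreted enzymes that act on the wall and on lignin, none was higher by at least 1 and 6 (66.7%) were lower. Over all tested transcripts, 14.8% were higher and 32.8% lower. The list's median difference was -1.12. Ca_TC00925 had 10.6 FPKM in RH and 131 FPKM in R, and Ca_TC01999 had 1.56 FPKM in RH and 45.8 FPKM in R. The abundant Ca_TC00922 and Ca_TC00923 lie next to each other in the identifier order and went the other way, with 1236 and 362 FPKM in RH and 987 and 201 FPKM in R. The list's summed level was therefore similar, 1638 FPKM in RH and 1453 FPKM in R, although most members were lower. After RH was scaled to the median ratio, 1 member was higher and 4 were lower.

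Of 16 tested mineral and nitrogen transporters, 1 (6.25%) was higher and 5 (31.3%) were lower, with a median difference of -0.82, beside 14.8%, 32.8% and -0.45 over all tested transcripts. The higher one was Ca_TC00152, annotated as the high-affinity sulfate transporter 1;3, with 54.4 FPKM in RH and 8.32 FPKM in R, and next highest in Rtip with 12.4 FPKM. Lower members were Ca_TC01218, sulfate transporter 3;4, listed at 0 in RH with 4.25 FPKM in R, and the potassium permease Ca_TC02313, with 22.1 FPKM in RH and 59.1 FPKM in R. Of 13 tested aquaporins, channels for water and small solutes, 2 (15.4%) were higher and 5 (38.5%) lower, which is near the shares of all tested transcripts, and their median difference was -0.78. The higher ones were both annotated as NOD26-like intrinsic protein 1;2, and Ca_TC00515 had 76.2 FPKM in RH and 16.4 FPKM in R. The most abundant aquaporin, Ca_TC01579, annotated as plasma membrane intrinsic protein 2, had 1248 FPKM in RH and 2082 FPKM in R. Only 1 of 16 plasma membrane proton pump transcripts was tested, Ca_TC02006, with 3.20 FPKM in RH and 3.13 FPKM in R. Of 10 tested members of a list meant for efflux transporters of the ABC and MATE families, 5 (50%) were lower and none higher, with a median difference of -0.97. The list was matched on descriptions. Its lower members include Ca_TC36942, an ABC1 family protein, and Ca_TC32869, a non-intrinsic ABC protein, which are not described as transporters.

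Receptor kinases, which sense signals at the cell surface, had 8 higher (22.9%) and 7 lower (20%) among 35 tested, with a median difference of -0.14. The shares of all tested transcripts were 14.8% and 32.8%. After quantile normalization, 13 of 37 tested (35.1%) were higher and 6 (16.2%) lower, beside 23.1% and 23.2% of all tested transcripts. Ca_TC00885, a leucine-rich repeat kinase, had 93.7 FPKM in RH and 8.13 FPKM in R and at most 2.52 FPKM in the other tissues. Ca_TC00421 had 95.6 FPKM in RH and 18.0 FPKM in R, and Ca_TC00272, annotated as receptor kinase 3, had 30.5 FPKM and 2.10 FPKM. Ca_TC00944, annotated as HERCULES receptor kinase 2, of a family that watches over the growing wall, had 20.3 FPKM in RH and 4.68 FPKM in R. The furthest lower members were Ca_TC33415, which is not aligned to the genome, and Ca_TC00330, of the STRUBBELIG receptor family. They had 0.03 and 0.02 FPKM in RH and 5.82 and 5.03 FPKM in R. Of the 7 lower members, 2 were receptors of defence signals. These were the chitin receptor CERK1 (Ca_TC00751, with 0.06 FPKM in RH and 3.11 FPKM in R) and the PEP1 receptor (Ca_TC01066, with 0.107 and 2.78 FPKM).

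Enzymes of phenylpropanoid and flavonoid synthesis, the route to lignin precursors and to the flavonoids that legume roots release, had a median difference of 0.82 over 10 tested members. Ca_TC31878, a chalcone and stilbene synthase, was the most abundant, with 1263 FPKM in RH and 573 FPKM in R. Ca_TC01072, annotated as 4-coumarate:CoA ligase 2, had 119 FPKM in RH and 21.6 FPKM in R. The list held 3 higher (30%) and 2 lower (20%) members as deposited, beside 14.8% and 32.8% of all tested transcripts. After quantile normalization, 7 of 12 tested were higher and 2 lower, beside 23.1% and 23.2% of all tested transcripts. Of the 10 tested members, 7 are among the transcripts not aligned to the genome. The list's phenylalanine ammonia lyase, Ca_TC35756, was lower, with 3.89 FPKM in RH and 16.1 FPKM in R.

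**Figure D3:**
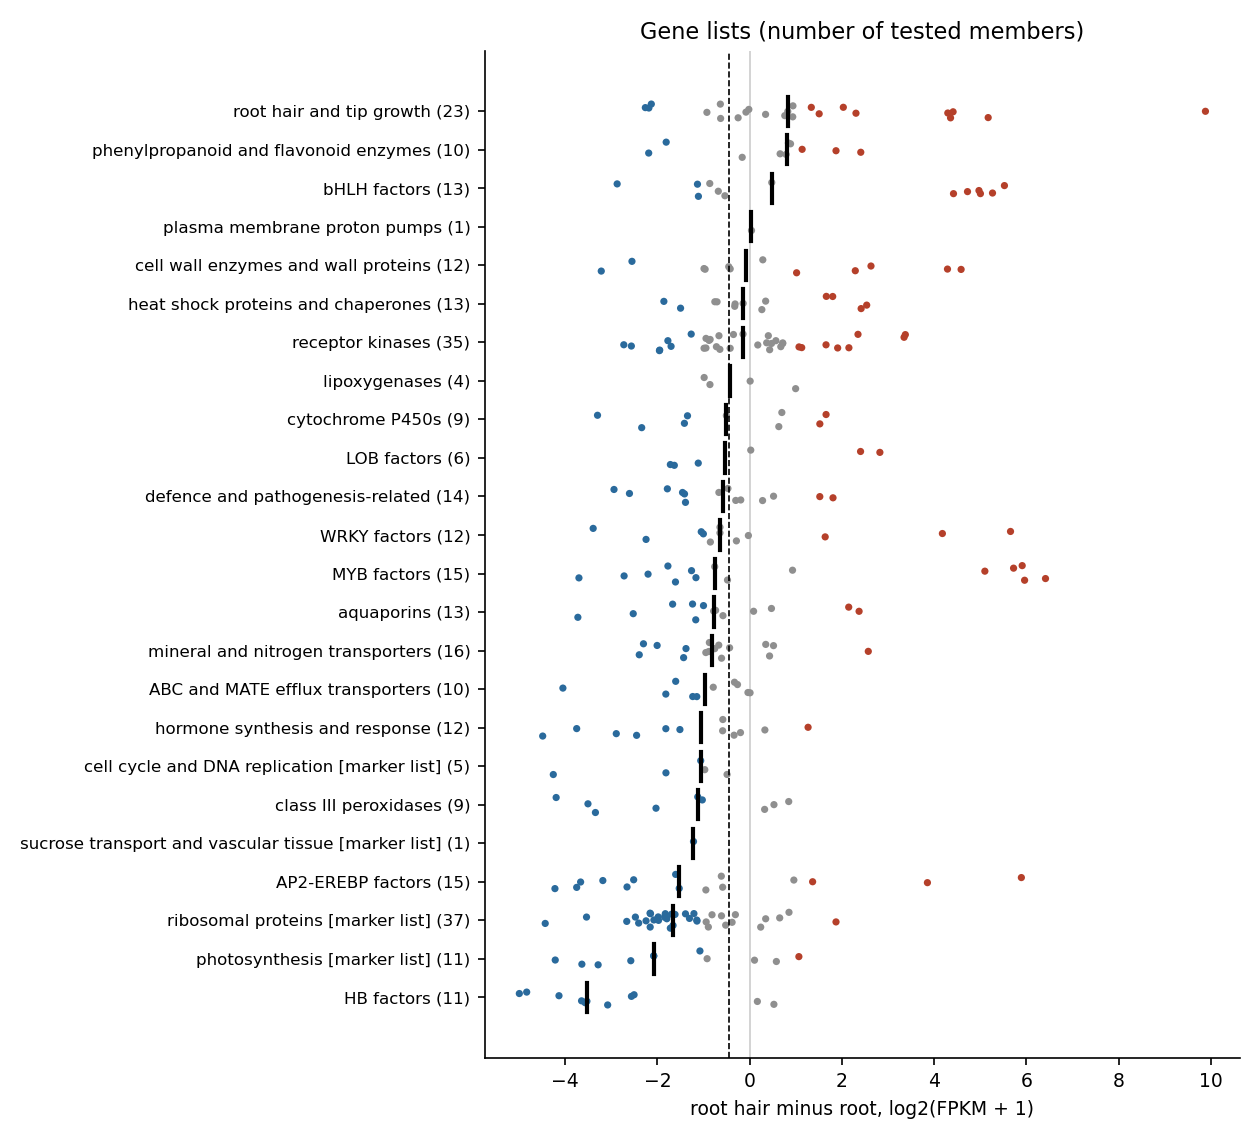
Each point is a tested member of a gene list, placed by its difference between root hair and root on the log2(FPKM + 1) scale, with members higher by at least 1 in red and lower by at least 1 in blue. Bold bars are list medians and the dashed line is the median of all tested transcripts (-0.45). The tip growth list has its median at 0.83 and the HB factors at -3.53.

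A TF family is listed for 206 of the tested transcripts, of which 33 (16.0%) were higher and 94 (45.6%) lower by at least 1. Most of these families come from lists that the study chose on these same samples by tissue specificity or coexpression, so counts that include them are not independent evidence of a direction. The 81 tested TFs from the stretch of chromosome Ca1 whose annotation was listed by position (the positional stretch) had 7 higher (8.64%) and 27 lower (33.3%) members. Over all tested transcripts 14.8% were higher and 32.8% lower, so the share of lower members among these TFs was that of the whole table. Positions alone are listed further along Ca1 than this annotation. TFs beyond it, such as the MYB factor Ca_TC01765 and the HB factor Ca_TC01269, are not among the 81.

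Among bHLH factors, a family with the root hair regulators RHD6 and RSL4 in Arabidopsis, 6 of 13 tested members (46.2%) were higher and 3 (23.1%) lower. The shares of all tested transcripts were 14.8% and 32.8%, and the list's median difference was 0.48. The 6 higher ones stood apart from the rest, with differences between 4.42 and 5.52. Of them, 3 lie on the positional stretch of Ca1, where 4 bHLH factors were tested. Ca_TC00237 (Ca1:1533951-1535497) had the highest level, 158 FPKM in RH against 3.97 FPKM in R, and at most 7.56 FPKM in the other tissues. Ca_TC01114 had 25.4 FPKM in RH and was listed at 0 in R, and Ca_TC01113 had 37.7 FPKM and 0.81 FPKM. Ca_TC01114 was highest in the flower stage FL1, with 25.7 FPKM, and had 18.0 FPKM in petal. Ca_TC11323 and Ca_TC11324 are neighbours in identifier order and had 47.3 and 42.4 FPKM in RH and 0.05 and 0.13 FPKM in R. Both stayed under 0.53 FPKM in all other tissues.

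MYB factors, regulators of metabolism and cell fate, were split in the same manner, with 5 higher (33.3%) and 7 lower (46.7%) among 15 tested. The shares of all tested transcripts were 14.8% and 32.8%. Their median was -0.76 as deposited and 0.11 after quantile normalization. The 5 higher members had differences of 5.10 to 6.41. Ca_TC00293 (Ca1:1848682-1850424), annotated as MYB-like 102, had 104 FPKM in RH and 0.68 FPKM in R. It also had 41.7 FPKM in shoot apical meristem and 36.4 FPKM in GS. Ca_TC01765 had 86.7 FPKM and 0.03 FPKM, and Ca_TC06410 had 139 FPKM and 1.33 FPKM. The largest lower member was Ca_TC08683, with 0.99 FPKM in RH and 24.9 FPKM in R. In the WRKY family, known from defence, 3 of 12 tested members (25%) were higher and 4 (33.3%) lower. Ca_TC01000 (WRKY14, Ca1:7988768-7993125) had 74.3 FPKM in RH and 3.16 FPKM in R. Ca_TC29692 had 53.4 FPKM and 0.08 FPKM, and next reached 14.1 FPKM in androecium. Ca_TC01093, annotated as WRKY40, was lower, with 0.387 FPKM in RH and 13.6 FPKM in R. The MADS factor Ca_TC15541 had 59.5 FPKM in RH, was listed at 0 in R and was highest in petal with 413 FPKM. On the positional stretch, 1 of 2 tested MYB factors was higher and 1 lower, and 1 of 6 WRKY factors was higher and 2 lower. Of the AP2-EREBP factors, 3 of 15 (20%) were higher and 8 (53.3%) lower, with a median difference of -1.53. Of the 6 on the positional stretch, none was higher and 3 were lower. Ca_TC21492 was the furthest, with 60.6 FPKM in RH and 0.04 FPKM in R, and was again higher in petal with 188 FPKM.

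Homeobox (HB) factors, many of which pattern meristems and vascular tissue, were the list with the lowest median, -3.53. Of 11 tested members, 9 (81.8%) were lower by at least 1 and none was higher, beside 32.8% and 14.8% of all tested transcripts. Most of these members come from the lists chosen on these samples, and of the 4 on the positional stretch, 2 were lower and none higher. Ca_TC05640 had 30.8 FPKM in R and was listed at 0 in RH. Ca_TC00936, a leucine zipper protein with a START domain, had 27.7 FPKM in R and 0.007 FPKM in RH, and the KNOX factor Ca_TC00756 had 11.7 FPKM and 0.02 FPKM. The 2 exceptions were Ca_TC00416, with 20.6 FPKM in RH and 18.2 FPKM in R, and Ca_TC01246, with 1.203 FPKM in RH and 0.53 FPKM in R. Ca_TC01246 is annotated as GL2, which in Arabidopsis keeps epidermal cells of the root from forming hairs. After quantile normalization, 1 of 12 tested HB factors was higher and 9 were lower.

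Some of the most abundant transcripts of R were nearly absent from RH. Ca_TC07080 had 13377 FPKM in R and 0.137 FPKM in RH, and Ca_TC19078 had 10551 FPKM in R and 0.167 FPKM in RH. Ca_TC24451, Ca_TC24292, Ca_TC16864, Ca_TC16404, Ca_TC17995, Ca_TC02156, Ca_TC25622 and Ca_TC15390 had 816 to 2418 FPKM in R and at most 0.23 FPKM in RH. None of these 10 has a gene description at hand. They were far lower in Rtip too, where Ca_TC07080 had 125 FPKM and Ca_TC19078 had 120 FPKM. Not all abundant R transcripts were like this: Ca_TC21042, the highest in R with 33627 FPKM, had 3930.1 FPKM in RH, and Ca_TC03246 had 19192 FPKM in R and 2762 FPKM in RH.

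Described transcripts with the largest lower values included metabolic and transport genes. Ca_TC12845, of the Nodulin MtN3 family that holds sugar transporters, had 195 FPKM in R and was listed at 0 in RH. Ca_TC31848, annotated as pyruvate decarboxylase-2, the enzyme that leads into ethanol fermentation, had 130 FPKM in R and 0.13 FPKM in RH. It was highest in FL3, with 845 FPKM, and is listed as not aligned to the genome, so its level is uncertain. Ca_TC00171 (metacaspase 3, of a family of proteases linked to cell death) had 74.0 FPKM in R and 0.033 FPKM in RH. Ca_TC00667, annotated as glutamine synthetase 2, the plastid form of an enzyme of ammonium assimilation, had 71.2 FPKM in R and 0.153 FPKM in RH. Of 12 tested transcripts of hormone synthesis and response, 6 were lower and 1 was higher, with a median difference of -1.05, beside 32.8% lower, 14.8% higher and -0.45 over all tested transcripts. Examples were the ethylene response factor Ca_TC00405, with 93.3 FPKM in R and 6.02 FPKM in RH, and Ca_TC01202, annotated as gibberellin 3-oxidase 1, with 6.54 FPKM and 0.017 FPKM.

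The lists of other cells' markers gave the following. Of 11 tested photosynthesis transcripts, 7 (63.6%) were lower and 1 (9.09%) higher, beside 32.8% and 14.8% of all tested transcripts. The list's sum was 84.3 FPKM in R and 15.5 FPKM in RH, and the other members of its 77 reached 0.5 FPKM in neither tissue. Of 5 tested cell cycle transcripts, 3 were lower and none higher, and 2 were lower under each of the 3 other scalings. Ca_TC01002, annotated as cell division control 2, had 27.5 FPKM in R and 0.493 FPKM in RH, but Ca_TC01003 with the same annotation had 84.5 and 40.0 FPKM. Only 1 of 9 vascular markers was tested, the laccase Ca_TC32669, with 1.36 FPKM in R and 0.01 FPKM in RH, so the vascular list says little. Of 37 tested transcripts described as ribosomal proteins, which include a few of plastids or other compartments, 25 (67.6%) were lower and 1 (2.70%) higher. The list's sum was 5577 FPKM in R and 1538 FPKM in RH. Under the 3 other scalings, 22 to 24 of its members were lower. The part of these other cells in the differences of other lists was not tested.

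Levels in the other 29 tissues with FPKM were not used in the comparison and showed where else these transcripts were found. Of the 3522 transcripts higher in RH, 1472 (41.8%) had their highest value of all tissues in RH, beside 8.47% of all tested transcripts. The RH values chose the set, so these shares describe it and are no separate support. Of the 711 transcripts higher by at least 3, these were 497. Leaving RH and R aside, the highest of the other tissues was Rtip for 119 (16.7%), androecium for 96 (13.5%) and GS for 88 (12.4%) of the 711. Over all tested transcripts the same shares were 6.33, 6.04 and 3.40%. For 30DAP seed the share was 4.36% for the 711 and 1.96% for all tested transcripts. In gynoecium, the other sexual organ of the flower, the share was 1.55% for the 711 and 6.73% for all tested transcripts.

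For the 711 transcripts, the medians of 21 of the 29 other tissues, Rtip and GS among them, lay between those of R and RH. The median was 51.8 FPKM in RH, 4.97 FPKM in GS, 4.06 FPKM in the flower bud stage FB4, 3.23 FPKM in Rtip and 1.16 FPKM in R. In androecium it was only 1.52 FPKM, and 362 of the 711 (50.9%) were higher there than in R. For Rtip and GS these shares were 73.4 and 83.3%. GS had the highest median of the other tissues, and 4 tissues had a higher one than Rtip. Of the 711, 15 were higher in Rtip than in RH and 29 were higher in GS than in RH. Because the RH and R values chose the transcripts, their place at the 2 ends is set by the choice.

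**Figure D4:**
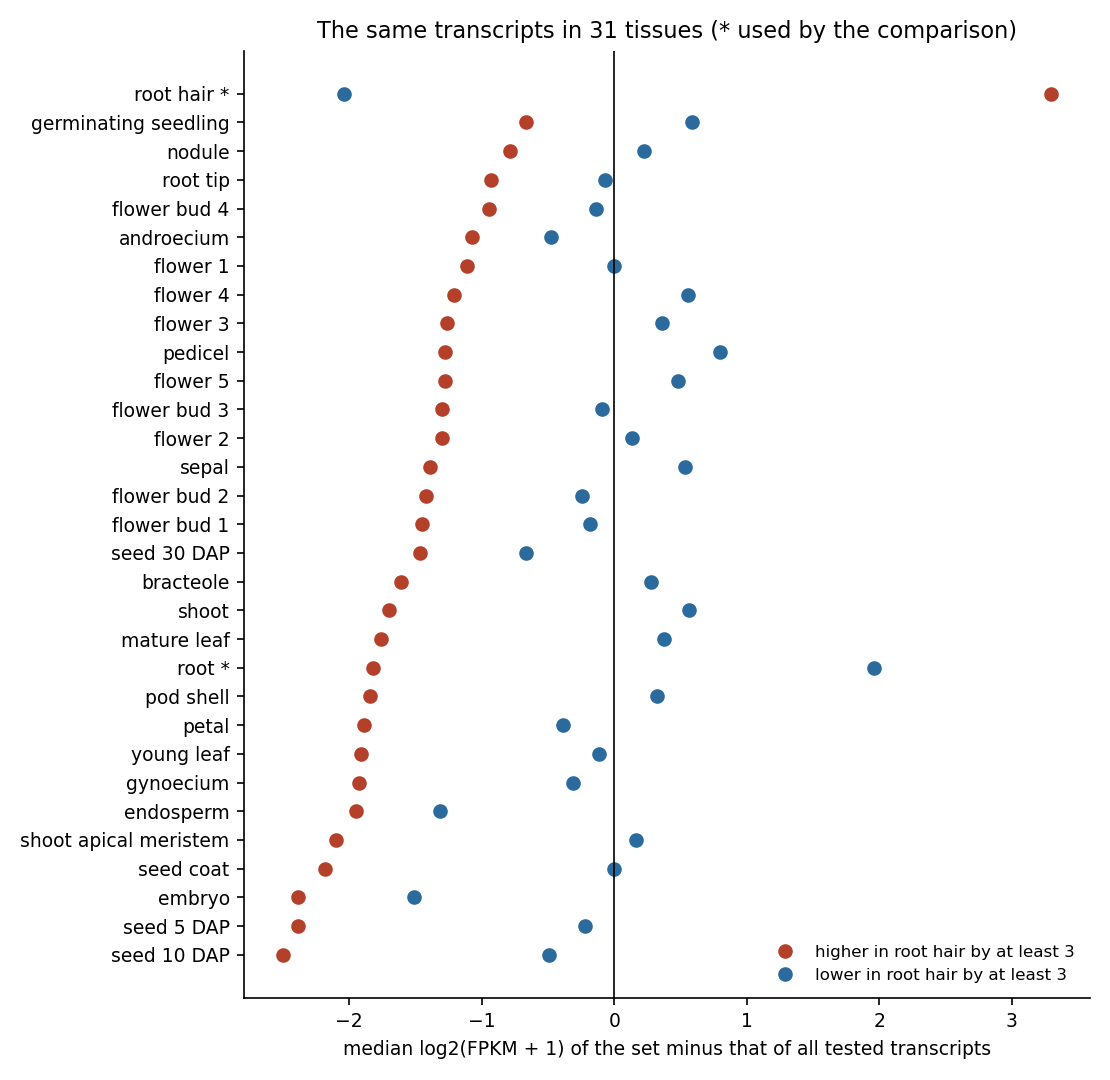
For each of 31 tissues, the x axis gives the median log2(FPKM + 1) of the 711 transcripts higher (red) and of the 1474 transcripts lower (blue) in root hair by at least 3, minus the median of all tested transcripts in that tissue. Asterisks mark root hair and root, which defined the sets. Outside root hair, the red set lies below 0 in every tissue, closest to it in germinating seedling (-0.66), and the blue set is highest after root in pedicel (0.80).

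Androecium, the male organ that holds the pollen, shared a named member of the wall list with RH. The Ole e 1 and extensin family transcript (Ca_TC00464) reached 3066 FPKM there, against 72.6 FPKM in RH. Ca_TC12348 had 1267 FPKM in androecium, 158 FPKM in RH and 0.61 FPKM in R, and Ca_TC22796 had 651, 83.8 and 0.33 FPKM. Ca_TC12835 had 334, 211 and 3.73 FPKM. These last 3 have no gene description and were named after their values were seen. Of the 711 transcripts, 85 were higher in androecium than in RH.

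Among the 1474 transcripts lower in RH by at least 3, pedicel was the highest of the other tissues for 186 of them (12.6%, beside 5.60% of all tested transcripts), shoot for 118 (8.01%, beside 4.43%), GS for 94 (6.38%, beside 3.40%) and nodule for 48 (3.26%, beside 1.46%). The share of GS was thus above that of all tested transcripts in both sets. Androecium was so for 13 (0.88%). Ca_TC16404 is an example, with 17042 FPKM in pedicel, 1559 FPKM in R and 0.17 FPKM in RH.

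Types and positions were listed for 1808 transcripts of a stretch of Ca1 that reaches beyond the positional stretch used for the TFs. Of its 186 lncRNAs, long RNAs without a protein product, 78 were tested, and of its 1622 PCGs (protein-coding genes) 1303. Among the lncRNAs, 11 (14.1%) were higher and 29 (37.2%) lower in RH, and among the PCGs 208 (16.0%) were higher and 434 (33.3%) lower. Both types were thus near the shares of all tested transcripts. The median level of the lncRNAs was 1.58 FPKM in RH and 4.13 FPKM in R. The lncRNA Ca_TC00195 (Ca1:1240169-1241532) had 775 FPKM in RH, 14.9 FPKM in R and 97.5 FPKM in GS. Ca_TC00184 (Ca1:1159081-1160198) had 281 FPKM in RH and 3.55 FPKM in R, but almost as much in GS, 267 FPKM. On the other side, Ca_TC01554 (Ca1:11994807-11996499) had 78.5 FPKM in R and was listed at 0 in RH and Rtip.

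Consecutive identifiers mostly follow the chromosome, since 91.2% of the listed starts lay beyond that of the preceding transcript. Transcripts higher in RH formed 116 runs of at least 3 consecutive identifiers, which held 10.9% of the higher transcripts, and lower ones formed 469 runs, which held 21.5%. A larger set forms more runs in any order, and 7781 transcripts were lower against 3522 higher. The share under random order was not calculated, so the 2 directions cannot be compared. Of the 10 higher runs with listed positions, 7 included transcripts that overlap, as did 22 of the 31 lower runs. Part of these runs is thus 1 locus counted more than once. The run whose least different member had the largest difference was Ca_TC10487 to Ca_TC10489, with 3894, 27.1 and 148 FPKM in RH and 0.74, 0 and 1.87 FPKM in R. Ca_TC07173 to Ca_TC07175 had 85.3, 7666 and 237 FPKM in RH and 0.47, 80.9 and 11.6 FPKM in R. The longest higher run had 6 members, Ca_TC00235 to Ca_TC00240, and included the bHLH factor Ca_TC00237 and 2 overlapping receptor kinase transcripts.

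Transcripts of 1 locus did not always go together. Of 234 overlapping neighbours with both members tested, 71 had both members past the threshold in the same direction and 7 in opposite directions. In the RAB GTPase A1F pair, Ca_TC00425 (Ca1:2908001-2910565) had 29.1 FPKM in RH and 9.59 FPKM in R, while Ca_TC00424 (Ca1:2908106-2910081) inside it had 1.04 FPKM in RH and 8.76 FPKM in R. Ca_TC01803 had 1524 FPKM in RH and 4.27 FPKM in R, while the overlapping Ca_TC01802 had 4.67 and 76.4 FPKM. Reads of overlapping transcripts are assigned by estimation, and whether the counting used the strand is not given in the sources used here, so the division within such pairs is uncertain.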

How the data were processed

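RNA-seq libraries of 32 chickpea tissues/organs were aligned by the authors with bowtie2 (v2.3.4.1) to their own transcriptome assembly and quantified with RSEM (v1.2.28). The authors deposited 1 FPKM value per transcript and tissue, stated to be the average of the replicates. For 20DAP seed the deposited values have another unit and were left out, so 31 tissues were used. Depth is not in the FPKM, and no precision can be stated for a single value.

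The difference was log2(FPKM + 1) in RH minus R over transcripts with at least 0.5 FPKM in either, with a threshold of 1. No test was made, because each tissue has 1 value. Names, TF families, types and positions come from those parts of the study's supplementary annotation that were at hand, and gene lists were matched on these descriptions. Members and lists were chosen with earlier results of these data known. Named were the 10 largest differences in each direction, over all and over described transcripts, the 5 highest levels per tissue, up to 4 members with the largest difference per list, 8 TFs and 5 lncRNAs per direction, root hair genes and markers. Other members of lists, runs and overlapping pairs were named after their values were seen. Ratios are of FPKM without a pseudocount. Scripts were tested on simulated data. Calculations used Python 3.11.15 with pandas 2.3.3 and numpy 2.4.6. Alternatives concerned the pseudocount, the filter, the scaling, the threshold and the tissue compared with RH. One item of the tip growth list is not reported here by name.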

Additional observations from a re-analysis of the deposited data

How the results depend on the processing

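No paired analysis was possible because RH and R have 1 value each, and for the same reason no replicate could be left out. As deposited, 3522 transcripts were higher, 7781 were lower and the median difference was -0.45. Quantile normalization gave 5537 higher transcripts and turned the median to 0.10. The median was -0.57 with a pseudocount of 0.1, -0.28 with a filter of 0.1 FPKM, 0 without a filter, -0.25 with a common FPKM sum and -0.33 with the median ratio, which scaled RH by 1.11. The unfiltered median includes 7630 transcripts at 0 in both tissues. With Rtip or GS in place of R, chosen after the data were seen, it was -0.50 and -0.64. At a threshold of 2, 1486 transcripts were higher and 3393 lower, 59.6% of the higher ones had their highest value in RH, and 19 higher and 80 lower runs were left. With a pseudocount of 0.1, 51.3% of lncRNAs and 41.3% of PCGs were lower. Of the 155 named transcripts, 149 stayed on the same side of the threshold with quantile normalization and 149 with a pseudocount of 0.1, and none changed sign past the threshold under the 4 alternatives run on them. Of the 20 lists, 8 had a median above that of all tested transcripts as deposited, with a pseudocount of 0.1, with sums over the same Arabidopsis best hit, with a common sum and with the median ratio, and 9 after quantile normalization, where the MYB factors were added.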
